A study of Mus musculus with 22 samples.

Results

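The genes of the constitutive proteasome were read from two-colour arrays of mouse liver tumours. Members were all spots whose platform symbol began with Psma, Psmb, Psmc, Psmd or Psme, except Psmb8 and Psmb9, which encode catalytic subunits induced by interferon. The rule found 35 genes on 44 of the 37632 spots, out of 16896 named genes on the array. Of these, 33 could be tested. Psmb10 gave no value on any array and Psma8, a testis form of a core subunit, gave one on 2 arrays only. Psmc3ip shares the prefix but encodes a protein that interacts with a subunit and is no part of the particle, so 32 of the tested genes encode parts or partners of the proteasome. Psma5, Psmb3, Psmb11, Psmc1, Psmd11, Psme2, Psme2b and Psme3 had no spot under these symbols and were not analysed here.

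The series asked which genes depend on NF-kB in hepatocellular carcinoma. The groups were as follows. IkB-SR tumours (6, replicates 3, 4, 6, 8, 9 and 10) were carcinomas of Mdr2-/- mice that also carried a pair of transgenes. One was the IkB super-repressor, an inhibitor that holds NF-kB in the cytoplasm, under a tetracycline-regulated promoter. The other was the tetracycline transactivator under a hepatocyte-specific C/EBP promoter (TALAP1), so that the repressor is aimed at hepatocytes and not at the other cells of the tumour. Mdr2-KO tumours (4, replicates 1, 2, 5 and 7) were carcinomas of Mdr2-/- mice without the transgenes. Both tumour groups lacked the Mdr2 phospholipid transporter of bile, whose loss leads to hepatitis and then cancer. The third group was 1 wild-type liver, and both tumour groups were set against that same liver. The design text states that the tumours came from individual mice. Ages, doxycycline treatment and sex are not given, and the background is labelled as mixed.

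Each RNA was measured on a pair of dye-swapped arrays beside the Stratagene mouse reference RNA, a pool of several tissues and cell types. All values below are log2 ratios of sample over this reference, averaged over both arrays, and all differences are log2 differences between groups. A ratio cannot be compared between genes, because the reference holds a different amount of each transcript. The transgene's parent gene Nfkbia lay at 1.69 to 3.11 in 5 IkB-SR tumours, but at 0.003 in the sample labelled IkB-SR replicate 8, close to the Mdr2-KO tumours (0.04 to 0.30). The Y chromosome gene Eif2s3y was at 2.34 and 2.46 in IkB-SR tumours 6 and 9, at 1.64 in the sample labelled IkB-SR replicate 8 and at 2.33 in the liver, but at -2.98 or lower in the other 7 tumours. The spread of the difference between dyes was small in 6 samples (SD 0.2155 to 0.3047) and large in the other 5 (SD 0.6622 to 0.7579), which were IkB-SR tumour 6, the sample labelled IkB-SR replicate 8, Mdr2-KO tumours 5 and 7 and the liver. In those 5, the median member spot read higher by 0.80 to 0.97 with Cy3 than with Cy5, against 0.37 to 0.43 over all spots. Between tumour groups, the large set compared IkB-SR tumour 6 and the sample labelled IkB-SR replicate 8 with Mdr2-KO tumours 5 and 7. There Eif2s3y was high in the IkB-SR samples and low in the Mdr2-KO tumours, so its part cannot be told apart from the repressor's. The small set compared IkB-SR tumours 3, 4, 9 and 10 with Mdr2-KO tumours 1 and 2. Genes of the hepatocyte list averaged 5.32 to 6.09 in IkB-SR tumours, 5.02 to 5.47 in Mdr2-KO tumours and 5.52 in the liver, so liver RNA was present in every sample.

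The proteasome degrades proteins tagged with ubiquitin. Its core particle is a barrel of stacked rings of alpha and beta subunits, and 3 beta subunits (Psmb5, Psmb6 and Psmb7) cut the substrate. A regulatory particle caps the barrel, and its base holds a ring of 6 ATPases (Psmc genes) that unfold the substrate. Its non-ATPase subunits (most Psmd genes) include scaffold subunits and some that bind or trim ubiquitin. Other caps, such as PA28 (Psme1 with Psme2) and PA200 (Psme4), open the barrel without ubiquitin. NF-kB depends on the proteasome, since the inhibitor IkB-alpha is degraded there, and the super-repressor form resists that degradation. Subunit genes are known to be transcribed together in mammalian cells through Nfe2l1, a factor that binds antioxidant response elements, while interferon induces Psmb8, Psmb9, Psmb10 and PA28.

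Promoter windows of RefSeq (GRCm38.p6, from 250 bases before to 50 after the gene start) were available for 28 of the 35 members, in 30 windows of 300 bases. Those of Psmd12, Psme1 and Psmd9 are shown, because these genes had the smallest p in the comparisons below. Capitals mark matches, on either strand, to the antioxidant response element (TGACNNNGC), the interferon-stimulated response element (GAAA, any 2 bases, GAAA), the NF-kB consensus and the GC box (GGGCGG).
Psmd12: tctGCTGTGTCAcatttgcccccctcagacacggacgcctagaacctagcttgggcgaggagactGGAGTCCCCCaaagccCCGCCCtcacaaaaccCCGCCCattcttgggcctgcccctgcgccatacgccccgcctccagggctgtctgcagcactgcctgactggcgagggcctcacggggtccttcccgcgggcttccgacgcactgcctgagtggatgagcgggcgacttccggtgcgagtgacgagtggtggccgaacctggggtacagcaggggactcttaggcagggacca
Psme1: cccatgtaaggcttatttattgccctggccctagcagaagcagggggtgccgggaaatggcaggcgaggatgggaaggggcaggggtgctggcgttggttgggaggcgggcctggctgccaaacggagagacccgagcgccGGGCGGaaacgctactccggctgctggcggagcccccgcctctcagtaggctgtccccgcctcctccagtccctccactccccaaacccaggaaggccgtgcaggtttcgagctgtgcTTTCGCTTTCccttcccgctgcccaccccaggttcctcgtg
Psmd9: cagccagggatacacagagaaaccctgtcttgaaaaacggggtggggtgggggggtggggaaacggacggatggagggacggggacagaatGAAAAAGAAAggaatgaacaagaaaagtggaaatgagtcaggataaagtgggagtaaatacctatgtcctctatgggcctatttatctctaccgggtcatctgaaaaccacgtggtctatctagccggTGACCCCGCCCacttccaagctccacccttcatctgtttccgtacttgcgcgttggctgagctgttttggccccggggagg

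The Psmd12 window lies at chr11:107479278-107479577 on the plus strand and holds 1 antioxidant response element, 1 NF-kB consensus match and 2 GC boxes. The Psme1 window lies at chr14:55578244-55578543 on the plus strand and holds 1 interferon-stimulated response element and 1 GC box. The Psmd9 window lies at chr5:123227940-123228239 on the plus strand, and its antioxidant response element and GC box overlap each other. Over all member windows, the antioxidant response element was found in 6 of 30 (20%; Psmb5, Psmb6, Psmc6, Psmd9, Psmd12 and Psme4), against 12.4% of the 32851 windows of all genes. The interferon-stimulated response element was found in 3 of 30 (10%; Psmd4, Psmd9 and Psme1) against 3.44% of all windows. The NF-kB consensus was found in 1 of 30 (3.33%) against 4.51% of all windows. The GC box was in 19 of 30 (63.3%) against 35.7%, and CCAAT in 10 of 30 (33.3%) against 37.4%. A match describes letters in the window and does not show that a factor binds there.

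**Figure D1:**
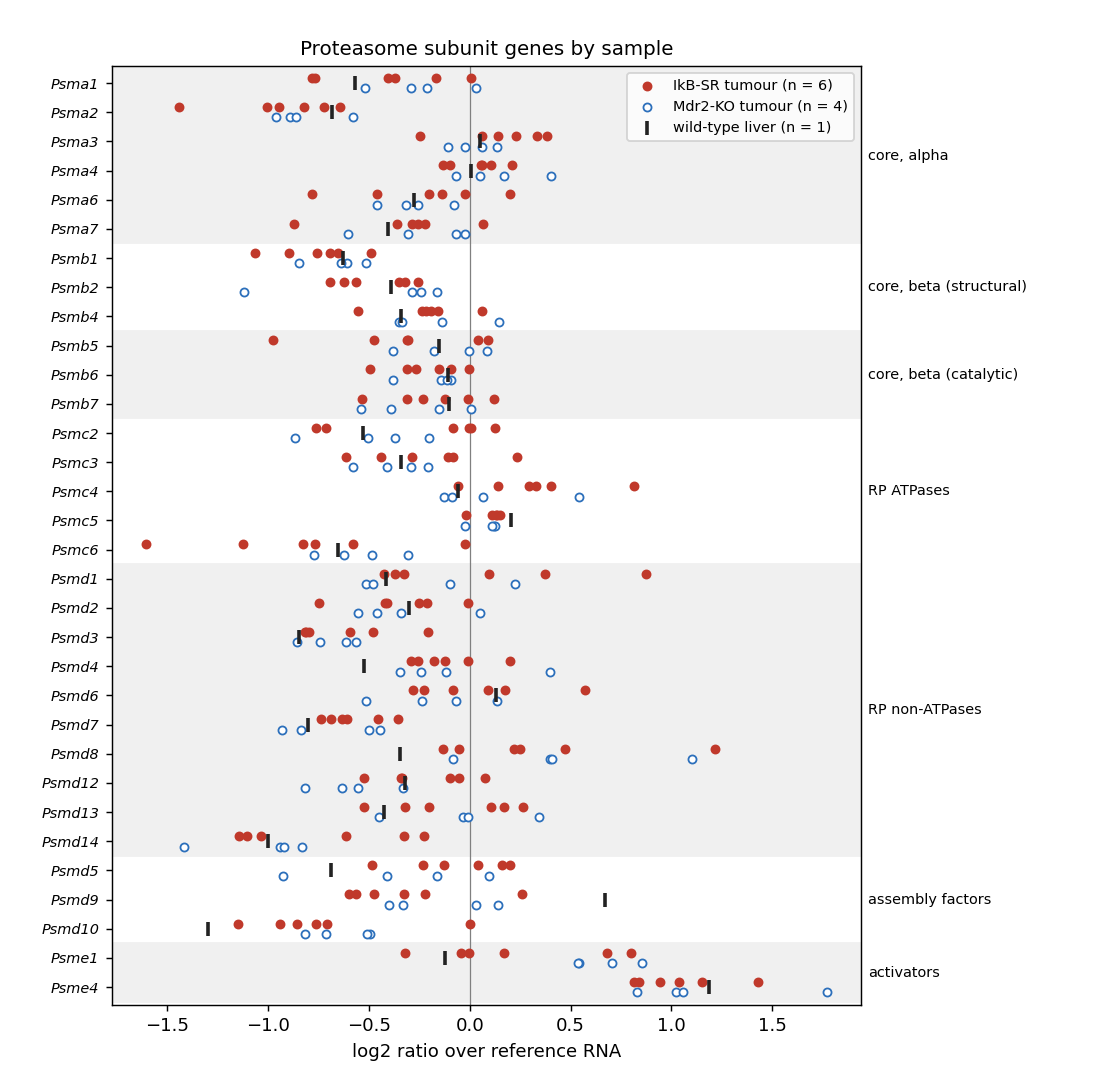
Log2 ratio over the reference RNA (x axis) of the 32 tested members other than Psmc3ip, grouped by role, with 1 point per tumour (filled, IkB-SR; open, Mdr2-KO) and a bar for the wild-type liver; RP is the regulatory particle. The points of both tumour groups overlapped for each gene, and the liver lay outside the range of all tumours for Psmd4, Psmd8 and Psmd10 (below) and for Psmc5 and Psmd9 (above).

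Between IkB-SR and Mdr2-KO tumours the members differed little. No member passed the threshold (limma, adjusted p under 0.05), and neither did any of the 18187 features tested (0%). At an unadjusted p under 0.05, 1 of the 33 members was found, Psmd12, against 12.4% of all features. The median difference of the members was -0.02, with 14 above 0 and 19 below, and that of all features was -0.02, with 56.8% below 0. For none of the 32 members with values in all 10 tumours did the groups fail to overlap, against 3.05% of all such features. The 95% interval of the difference, not adjusted for the number of genes, lay within a 2-fold change either way for 33 of 33 members. It did so for 16074 of the 18187 features as well. The widest bounds among the members were -0.92 for Psme1 and 0.86 for Psmd1.

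**Figure D2:**
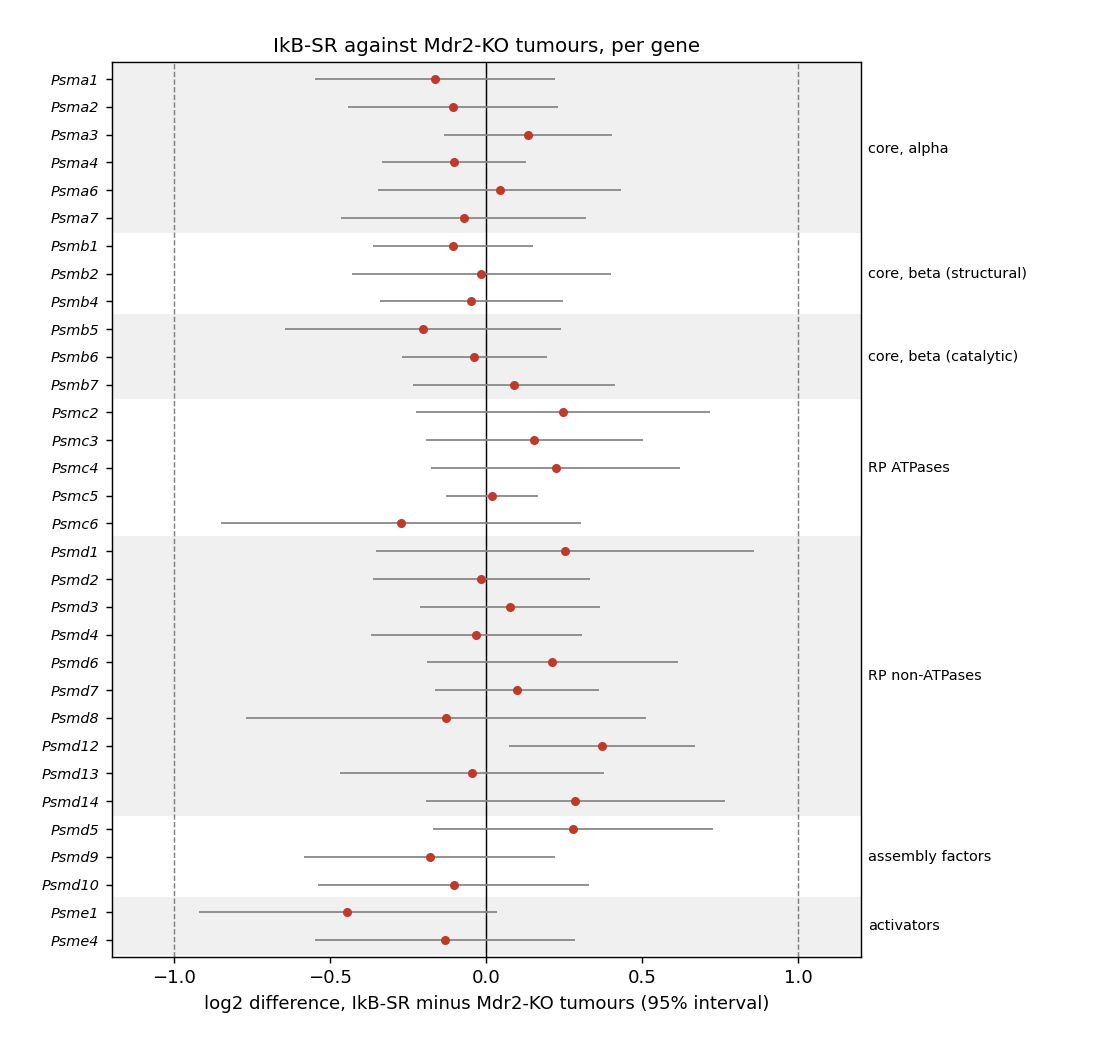
Log2 difference of IkB-SR minus Mdr2-KO tumours (x axis; 6 and 4 samples) for the same 32 genes, with the 95% interval of the limma fit; dashed lines mark a 2-fold change. The intervals stayed between the dashed lines, and that of Psmd12 was the one not crossing 0.

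Among the 6 measured alpha subunits of the core, 2 lay above 0 and 4 below, with a median difference of -0.09. Psma1 had the largest difference. It ranged from -0.78 to 0.01 in IkB-SR tumours (median -0.39), and was -0.29, -0.52, 0.03 and -0.21 in Mdr2-KO tumours 1, 2, 5 and 7. The difference was -0.17 (SE 0.17, adjusted p = 0.842 in limma), and -0.47 with Eif2s3y as a covariate. The slope of that covariate rests almost only on the IkB-SR samples, since the Mdr2-KO tumours were all low and the liver was 1 sample. Psma3 ranged from -0.25 to 0.39 in IkB-SR tumours (median 0.19), against -0.11, -0.02, 0.06 and 0.13 in Mdr2-KO tumours, and 4 of the 6 IkB-SR tumours lay above all Mdr2-KO tumours. Its difference was 0.14 (adjusted p = 0.783). Psma4 had values from -0.13 to 0.21 in IkB-SR tumours (median 0.06) and from -0.07 to 0.40 in Mdr2-KO tumours. Psma2, lowest in IkB-SR tumour 9 (-1.44), lay between -1.004 and -0.644 in the other IkB-SR tumours and between -0.96 and -0.58 in Mdr2-KO tumours.

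The 3 catalytic subunits overlapped between the groups. Psmb5, the chymotrypsin-like subunit, ranged from -0.97 to 0.09 in IkB-SR tumours (median -0.31), and was -0.18, -0.003, 0.09 and -0.38 in Mdr2-KO tumours 1, 2, 5 and 7. Its low value in IkB-SR tumour 3 stood alone, and the difference was -0.20 (95% interval -0.65 to 0.24). It was -0.33 in the samples of small and 0.01 in those of large dye spread, and -0.56 with Eif2s3y as a covariate. Psmb6, the caspase-like subunit, averaged -0.22 ± 0.17 in IkB-SR tumours (SD, n = 6) and -0.18 ± 0.13 in Mdr2-KO tumours (SD, n = 4). It varied least of the 32 members with values in all 10 tumours (SD 0.15), although its 2 spots, at mean ratios of 0.05 and -0.44, correlated only at r = 0.605 over the samples. Psmb7, the trypsin-like subunit, averaged -0.18 ± 0.23 in IkB-SR tumours and -0.27 ± 0.24 in Mdr2-KO tumours (SD, n = 6 and 4). The structural beta subunits Psmb1, Psmb2 and Psmb4 had differences of -0.11, -0.02 and -0.05. Psmb2 was at -0.16, -0.24 and -0.28 in Mdr2-KO tumours 1, 2 and 5 but at -1.12 in Mdr2-KO tumour 7.

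In the regulatory particle, 10 of the 15 measured subunits lay above 0 and 5 below, with a median difference of 0.10, beside 3 above and 9 below in the core (median -0.06). Of the 5 ATPases, Psmc2, Psmc3, Psmc4 and Psmc5 lay above 0 and Psmc6 below. Psmc2 ranged from -0.76 to 0.13 in IkB-SR tumours (median -0.04), against -0.87, -0.50, -0.20 and -0.37 in Mdr2-KO tumours 1, 2, 5 and 7. In all, 4 of the 6 IkB-SR values, namely all but those of tumours 4 and 10, lay above every Mdr2-KO value, and the difference was 0.25 (95% interval -0.23 to 0.72), which turned to -0.09 with Eif2s3y as a covariate. Psmc4 ranged from -0.06 to 0.81 in IkB-SR tumours (median 0.31), against -0.13, 0.07, 0.54 and -0.09 in Mdr2-KO tumours. Psmc6 had the widest scatter of the ATPases, from -1.60 in IkB-SR tumour 3 to -0.02 in IkB-SR tumour 9 (median -0.80), against -0.77, -0.49, -0.31 and -0.62 in Mdr2-KO tumours. It differed by -0.27, or by -0.77 once Eif2s3y entered the fit. Psmc5 varied little: leaving out IkB-SR tumour 3, where 1 array had no value, it averaged 0.10 ± 0.07 in 5 IkB-SR tumours and 0.08 ± 0.07 in 4 Mdr2-KO tumours (SD).

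Psmd12, a scaffold subunit of the lid of the regulatory particle, had the smallest p of the members. It ranged from -0.52 to 0.08 in IkB-SR tumours (median -0.22), and was -0.63, -0.33, -0.55 and -0.82 in Mdr2-KO tumours 1, 2, 5 and 7. The values of IkB-SR tumours 3, 6 and 10 lay above every Mdr2-KO tumour, and the other 3 IkB-SR samples lay within the Mdr2-KO range. The difference was 0.37 (SE 0.13, 95% interval 0.07 to 0.67) with an unadjusted p of 0.0198 and an adjusted p of 0.298 in limma. The two-sided exact permutation test over the 210 splits gave p = 0.0333, unadjusted, where the smallest possible is 0.00476. The difference was 0.23 in the samples of small dye spread and 0.56 in those of large dye spread, and its unadjusted p was under 0.05 in 19 of 24 alternative analyses. These unadjusted p-values do not allow for the choice of Psmd12 as the member with the smallest p. Its values rest on 1 spot.

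Psmd14, the deubiquitinase of the lid, lay at -0.33, -0.61 and -0.23 in IkB-SR tumour 6, the sample labelled IkB-SR replicate 8 and IkB-SR tumour 9, and at -1.10, -1.04 and -1.14 in IkB-SR tumours 3, 4 and 10. Mdr2-KO tumours 1, 2, 5 and 7 had -0.83, -0.94, -0.92 and -1.42. The 3 higher IkB-SR values lay above every Mdr2-KO value and were those of the tumours with high Eif2s3y. The difference was 0.28 (95% interval -0.19 to 0.77), but 0.009 in the samples of small and 0.70 in those of large dye spread, and its direction turned with an Eif2s3y covariate (-0.16). Psmd1, a large scaffold subunit of the base, ranged from -0.42 to 0.88 in IkB-SR tumours (median -0.12), against -0.51, -0.10, 0.23 and -0.48 in Mdr2-KO tumours. Its highest values were those of the sample labelled IkB-SR replicate 8 (0.88) and IkB-SR tumour 6 (0.37).

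Psme1, the alpha subunit of the PA28 cap, had the largest difference of the members. IkB-SR tumours ranged from -0.32 to 0.80 (median 0.09), and Mdr2-KO tumours 1, 2, 5 and 7 had 0.71, 0.54, 0.54 and 0.85. In all, 4 of the 6 IkB-SR tumours lay below every Mdr2-KO tumour, while IkB-SR tumours 4 and 9 (0.68 and 0.80) lay within the Mdr2-KO range. The difference was -0.44 (SE 0.21, 95% interval -0.92 to 0.03) with an adjusted p of 0.446 in limma, and the exact permutation p was 0.11, unadjusted. Its 2 spots agreed (r = 0.947, differences -0.46 and -0.43), and the difference was -0.29 in the samples of small and -0.72 in those of large dye spread. Among markers of other cells, 7 of 7 endothelial and 8 of 8 macrophage genes also had differences below 0, none of them called, beside 56.8% of all features. So did 3 of 3 B and plasma cell, 2 of 2 neutrophil and 5 of 5 stellate cell and matrix genes. In contrast, 2 of 2 T and NK cell genes (median 0.21) and 2 of 4 cholangiocyte genes lay above 0. The mean of the 6 endothelial genes measured throughout lay at 0.75 to 1.73 in IkB-SR tumours and 2.05 to 3.36 in Mdr2-KO tumours, and that of 7 macrophage genes at 1.19 to 1.66 in IkB-SR and 1.87 to 2.65 in Mdr2-KO tumours. Their part in the Psme1 difference was not tested, and in whole tumours fewer cells of a type and less RNA per cell cannot be told apart. Psme4, the PA200 cap, averaged 1.04 ± 0.23 in IkB-SR tumours and 1.17 ± 0.41 in Mdr2-KO tumours (SD, n = 6 and 4).

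Of the assembly factors that carry a Psmd symbol, Psmd5 differed by 0.28, Psmd9 by -0.18 and Psmd10 by -0.10, with adjusted p from 0.685 to 0.932 in limma. Without the sample labelled IkB-SR replicate 8, Psmd9 differed by -0.30 and Psmd10 by -0.25. Psmd10 differed by -0.37 in the samples of small dye spread and by 0.29 in those of large dye spread. Psmd5 ranged from -0.48 to 0.20 in IkB-SR tumours (median -0.04), against -0.16, 0.10, -0.41 and -0.92 in Mdr2-KO tumours 1, 2, 5 and 7, and its difference was 0.10 in the samples of small dye spread and 0.54 with Eif2s3y as a covariate. Psmc3ip, the gene outside the particle, averaged -2.52 ± 0.25 in IkB-SR and -2.52 ± 0.97 in Mdr2-KO tumours (SD, n = 6 and 4), with Mdr2-KO tumour 7 at -1.07 and the other 3 Mdr2-KO tumours between -3.03 and -2.97.

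**Figure D3:**
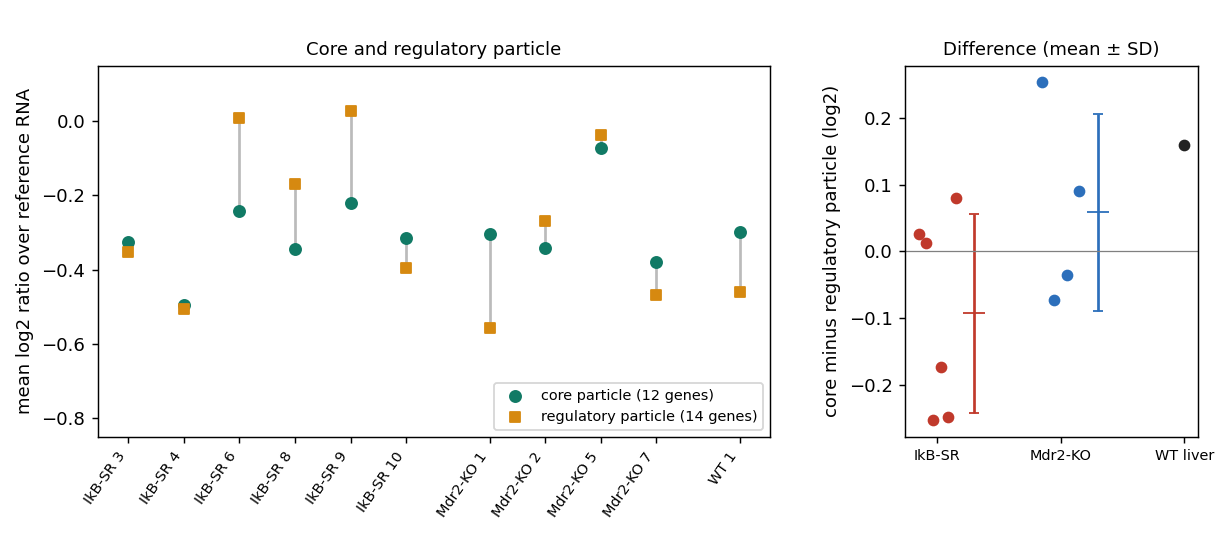
Left, mean log2 ratio over the reference RNA of 12 core genes (circles) and 14 regulatory particle genes (squares) in each sample; right, core minus regulatory particle by group, with group mean and SD beside the points (IkB-SR, n = 6; Mdr2-KO, n = 4; 1 wild-type liver without error). Only differences between samples can be read, since the reference sets the zero of each gene; IkB-SR tumour 6, the sample labelled IkB-SR replicate 8 and IkB-SR tumour 9 had the 3 lowest differences.

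The core was set against the regulatory particle within each sample, from 12 of the 14 core genes and 14 of the 17 regulatory particle genes, namely those with values in all 11 samples. The core mean varied little, at -0.32 ± 0.10 in IkB-SR tumours, -0.27 ± 0.14 in Mdr2-KO tumours (SD, n = 6 and 4) and -0.30 in the liver. The regulatory particle mean varied more, at -0.23 ± 0.22 in IkB-SR tumours, -0.33 ± 0.23 in Mdr2-KO tumours and -0.46 in the liver. Core minus regulatory particle was 0.03, 0.01, -0.25, -0.17, -0.25 and 0.08 in the IkB-SR samples 3, 4, 6, 8, 9 and 10 as labelled. It was 0.25, -0.07, -0.04 and 0.09 in Mdr2-KO tumours 1, 2, 5 and 7, and 0.16 in the liver. The means were -0.09 ± 0.15 in IkB-SR and 0.06 ± 0.15 in Mdr2-KO tumours, a difference of -0.15 beside an SD of 0.148 within the groups, and the groups overlapped. Of the 10 tumours, 9 lay below the liver, with a mean difference of -0.25 in IkB-SR and -0.10 in Mdr2-KO tumours. With the median of each particle in place of the mean, the differences were -0.18 between the tumour groups, -0.16 for IkB-SR tumours against the liver and 0.02 for Mdr2-KO tumours against the liver.

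The regulatory particle mean ran without a clear gap through the IkB-SR group. It was 0.03 in IkB-SR tumour 9, 0.01 in tumour 6, -0.17 in the sample labelled IkB-SR replicate 8, -0.35 in tumour 3, -0.40 in tumour 10 and -0.51 in tumour 4. The 3 highest were the IkB-SR samples with high Eif2s3y, and they spanned both sets of dye spread. In Mdr2-KO tumour 5, with low Eif2s3y, the regulatory particle mean was -0.04, and in the wild-type liver, with high Eif2s3y, it was -0.46. With Eif2s3y as a covariate the difference in core minus regulatory particle between the tumour groups was 0.02 in place of -0.15. Sex and repressor cannot be fully told apart here, since no Mdr2-KO tumour had high Eif2s3y. The difference was -0.12 in the samples of small dye spread and -0.24 in those of large dye spread, and -0.09 without Mdr2-KO tumour 1.

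**Figure D4:**
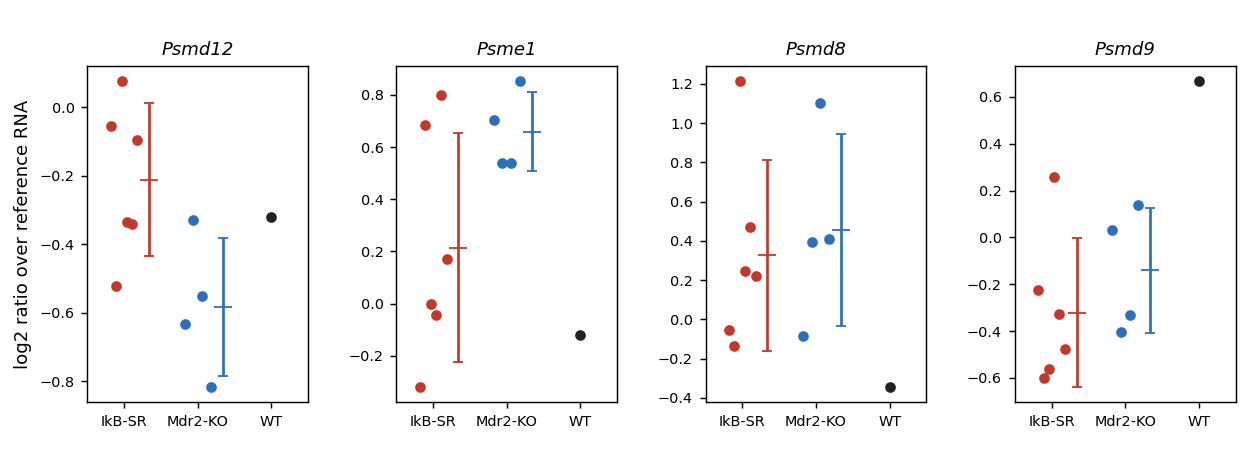
Log2 ratio over the reference RNA of Psmd12, Psme1, Psmd8 and Psmd9 in each sample, with the mean and SD of each tumour group beside the points (IkB-SR, n = 6; Mdr2-KO, n = 4; 1 wild-type liver); the y axes differ. The groups of tumours overlap in each panel, and the liver lies below all tumours for Psmd8 and above all tumours for Psmd9.

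Against the wild-type liver, the members were spread on both sides of 0 and none was called. For IkB-SR tumours, 21 members lay above 0 and 12 below, with a median of 0.11 (all features -0.02, with 53.1% below 0). For Mdr2-KO tumours, 19 lay above 0 and 14 below, with a median of 0.04 (all features 0.02, with 47.1% below 0). The fit called 29 of 17413 features in IkB-SR tumours (0.167%) and 43 in Mdr2-KO tumours (0.247%). At an unadjusted p under 0.05, 1 member was found in each comparison, Psmd9 both times, against 9.25% of all features in IkB-SR and 10.5% in Mdr2-KO tumours. One liver served both comparisons, so their values share it, and its unknown spread was taken to equal that of the tumours. It was in the set of large dye spread.

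Psmd9, an assembly factor of the regulatory particle base, ranged from -0.60 to 0.26 in IkB-SR tumours (median -0.40) and was 0.03, -0.40, -0.33 and 0.14 in Mdr2-KO tumours 1, 2, 5 and 7, against 0.67 in the liver. All 10 tumours lay below the liver, as they did for 9.31% of all features. The difference was -0.99 in IkB-SR tumours (SE 0.30, unadjusted p 0.00832, adjusted p 0.308 in limma) and -0.81 in Mdr2-KO tumours (unadjusted p 0.027, adjusted p 0.368). The highest IkB-SR value was that of the sample labelled IkB-SR replicate 8, and without it the IkB-SR difference was -1.11. In the samples of large dye spread, which hold the liver, the differences were -0.82 in IkB-SR and -0.77 in Mdr2-KO tumours. Psmd9 had 1 spot, so its values rest on that probe.

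Psmd4, Psmd8 and Psmd10 lay above the liver in all 10 tumours, 3 of 32 members against 14.2% of all features. Psmd8, a lid subunit, ranged from -0.13 to 1.22 in IkB-SR tumours (median 0.23) and was -0.09, 0.40, 1.10 and 0.41 in Mdr2-KO tumours 1, 2, 5 and 7, against -0.35 in the liver. The highest values were those of IkB-SR tumour 6 and Mdr2-KO tumour 5, both in the set of large dye spread, and its 2 spots agreed over the samples (r = 0.986). The difference from the liver was 0.67 in IkB-SR tumours (adjusted p 0.788) and 0.80 in Mdr2-KO tumours (adjusted p 0.691 in limma). With Cy5 arrays alone these were 1.09 and 1.07, and with Cy3 arrays alone 0.25 and 0.53. With Eif2s3y as a covariate they were 1.03 and 1.57, and in the samples of large dye spread 1.08 and 1.10. The covariate values carry a slope from the IkB-SR samples over to the Mdr2-KO tumours and the liver.

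Psmd10, also called gankyrin, a chaperone of the regulatory particle that is known as an oncoprotein in human liver cancer, ranged from -1.15 to 0.00 in IkB-SR tumours (median -0.81), the highest being the sample labelled IkB-SR replicate 8. Mdr2-KO tumours 1, 2, 5 and 7 had -0.49, -0.51, -0.82 and -0.71, and the liver -1.30. The difference was 0.56 in IkB-SR tumours (95% interval -0.16 to 1.29) and 0.67 in Mdr2-KO tumours (95% interval -0.08 to 1.42). Psmd4, a ubiquitin receptor of the regulatory particle, ranged from -0.29 to 0.20 in IkB-SR tumours (median -0.15) and from -0.35 to 0.40 in Mdr2-KO tumours, against -0.53 in the liver. Its differences from the liver, 0.42 in IkB-SR and 0.45 in Mdr2-KO tumours, came mainly from 1 dye. They were 0.83 and 0.80 with Cy5 arrays alone, but -0.001 and 0.09 with Cy3 arrays alone. After quantile normalization they were 0.14 and 0.13. Psmc5 lay below the liver (0.21) in 9 of the 9 tumours with values, with differences of -0.10 in IkB-SR and -0.12 in Mdr2-KO tumours. Among features with values in every sample, 9.31% had all 10 tumours below the liver. The Psmc5 differences were -0.28 and -0.24 with Cy5 arrays alone, but 0.05 and -0.002 with Cy3 arrays alone. Psme1 differed by 0.34 in IkB-SR tumours and 0.78 in Mdr2-KO tumours from -0.12 in the liver (adjusted p 0.887 and 0.523 in limma).

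Over the 10 tumours the members varied about as much as other features or slightly more. The SD over tumours had a median of 0.287 (range 0.153 to 0.588) for 32 members, against 0.244 for 15001 features, and 21 members lay above that value. Apart from Psmc3ip, the most variable were Psmd8 (SD 0.47, above 86.5% of features), Psmd1 (0.45, above 85.4%), Psmc6 (0.44, above 83.9%) and Psme1 (0.41, above 81.1%). Psmd2, a base scaffold subunit with 4 measured spots, gave r of 0.871 to 0.985 between spots, and its values in Mdr2-KO tumours 1, 2, 5 and 7 were -0.46, -0.34, 0.05 and -0.55. The 14 regulatory particle genes together, Psmd2 among them, were highest in Mdr2-KO tumour 5 among the Mdr2-KO tumours (-0.04, against -0.56, -0.27 and -0.47 in tumours 1, 2 and 7). So were the 12 core genes (-0.07, against -0.30, -0.34 and -0.38). The median of all features with values in every sample was highest there too (0.011, against -0.037, -0.047 and -0.035).

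The inducible subunits that the rule leaves out were further above the liver than any tested member, whose largest differences were 0.67 in IkB-SR and 0.80 in Mdr2-KO tumours, but they were not called either. Psmb9 ranged from 0.49 to 1.24 in IkB-SR tumours (median 0.76) and was 1.02, 0.39, 0.73 and 1.03 in Mdr2-KO tumours 1, 2, 5 and 7, against -0.40 in the liver, which lay below every tumour. Its difference from the liver was 1.22 in IkB-SR tumours (95% interval 0.53 to 1.92, adjusted p 0.211) and 1.19 in Mdr2-KO tumours (95% interval 0.47 to 1.91, adjusted p 0.196 in limma). Psmb8 differed from the liver by 0.966 and 1.198, with wider intervals (-0.43 to 2.36 and -0.25 to 2.65). Between IkB-SR and Mdr2-KO tumours, Psmb9 differed by 0.03 and Psmb8 by -0.23. Against the liver, 6 of 8 macrophage and 2 of 3 B cell markers lay above 0 in IkB-SR tumours (median differences 0.22 and 0.49), and 8 of 8 and 3 of 3 in Mdr2-KO tumours (1.30 and 1.49). Of 2 T and NK cell markers, 1 lay above 0 in IkB-SR and 0 in Mdr2-KO tumours (median differences -0.26 and -0.47). Of 2 neutrophil markers, 1 lay above 0 in each (0.15 and 1.22). Their part in the Psmb8 and Psmb9 values was not tested.

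Other genes of the pathway were read from lists of their roles, and none of those listed was called in any of the 3 comparisons. Nfe2l1 averaged -0.53 ± 0.18 in IkB-SR tumours, -0.50 ± 0.05 in Mdr2-KO tumours (SD, n = 6 and 4) and -0.62 in the liver. Its partner Mafk differed from the liver by 0.89 in IkB-SR and 0.97 in Mdr2-KO tumours (adjusted p 0.42 and 0.325), and Nfe2l2, the related factor of the oxidative stress response, by 0.73 and 1.13. Of 7 associated deubiquitinases and shuttle factors, 2 lay above 0 and 5 below between IkB-SR and Mdr2-KO tumours. The lowest p was that of Ddi2, the protease that activates Nfe2l1, at 0.83 ± 0.24 in IkB-SR and 1.15 ± 0.22 in Mdr2-KO tumours (SD; difference -0.32, adjusted p 0.393 in limma). Sem1, a small lid subunit without the Psmd prefix, differed by -0.41 (adjusted p 0.294). Adrm1, the other gene of its list, differed by 0.28 (adjusted p 0.694 in limma). Of 6 assembly chaperones and regulators, 2 lay above 0 and 4 below, and Akirin2, which carries proteasomes into the nucleus, differed by -0.38 (adjusted p 0.389). Against the liver, Psmg2 of the same list differed by 0.53 in IkB-SR and 0.71 in Mdr2-KO tumours. Ddi2 differed from the liver by -0.70 in IkB-SR and -0.37 in Mdr2-KO tumours.

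The 5 genes of peptide loading, which takes up the peptides that proteasomes make, all lay below 0 between IkB-SR and Mdr2-KO tumours. Their median was -0.20, with a range from -0.74 (Tapbp) to -0.01 (Tap2). All 6 measured genes of a control list (with Actb and Hprt) also lay below 0, with a median of -0.14, as did 56.8% of all features. In the same comparison 8 of 8 macrophage markers (median -0.98), 7 of 7 endothelial markers (-1.55) and 3 of 3 B and plasma cell markers (-1.065) lay below 0. The 2 T and NK cell markers lay above 0 (median 0.21). The part of these cells in the peptide loading values was not tested. Tapbp, the tapasin chaperone, was at -1.47 to -0.33 in IkB-SR tumours (median -0.79) and -0.14, -0.11, -0.17 and -0.02 in Mdr2-KO tumours 1, 2, 5 and 7. Its groups did not overlap, and the difference was -0.74 (SE 0.19, adjusted p 0.16 in limma). Tap1, a peptide transporter, differed from the liver by 1.25 in IkB-SR and 1.46 in Mdr2-KO tumours (adjusted p 0.466 and 0.324).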

How the data were processed

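The authors deposited 1 normalized value for each of 37632 spots on each of 22 arrays, taken here as a log2 ratio of sample to reference. Both dye orientations ran the same way. Base 2 was assumed, since the labels do not state it, and the direction is likely rather than stated: hepatocyte genes lay far above 0. The sources used here do not say how images were read, corrected and normalized. Spot intensities were not analysed, so spots near the background could not be recognised. The number of samples limits the precision. Arrays had 19576 to 25000 spots with a value, the array medians lay between -0.31 and 0.01, and dye-swapped arrays correlated at r from 0.8609 to 0.9878.

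Platform annotation named 20879 spots, of which 5005 symbols were updated to RefSeq GRCm38.p6 and 186 kept. The arrays of a sample were averaged, then spots of a symbol, each spot first set to the common mean so that a missing value did not move the average. Features with both arrays in 4 or more IkB-SR and 3 or more Mdr2-KO tumours were tested with limma 3.58.1 in R 4.3.3, in 1 fit of 11 samples with 3 group means, with Benjamini-Hochberg adjustment over all features and a threshold of 0.05. The fit was also run on simulated data, with independent normal values for each gene and known differences added. Those data held no sets of dye spread, no missing values and no separate spread for the liver. The run therefore cannot show how the fit behaves under these. P-values weigh a difference between groups against the spread between samples within the tumour groups, and the 1 liver adds nothing to that spread. Psmd12, Psme1 and other single members were also compared by exact permutation. Python 3.11.15 with pandas 2.3.3, scipy 1.17.1 and matplotlib 3.10.9 was used.

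Members and lists were chosen with earlier results of these data known. Named members were, per role list and comparison, the 2 with the smallest p and the 1 with the largest difference, with Psmb5 to Psmb10 and the PA28 genes always. Of other lists the rule picked the 2 with the smallest p per comparison, and Nfe2l1, Nfkbia and Eif2s3y. Only part of the genes picked from those lists are printed here. Psmd1, Psmd2, Nfe2l2, and the marker lists were added after their values were seen. Alternatives changed the normalization, the missing-value filter, the choice of spots, the dye, the block of dye spread (split at an SD of 0.5 after values were seen), an Eif2s3y covariate and each sample left out. The tissue in the extraction protocol (skin) and the carcinoma stage given for the wild-type liver contradict other labels and were not used.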

Additional observations from a re-analysis of the deposited data

Results flagged for a closer look

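Mdr2-KO tumour 7 stood far from the other 3 Mdr2-KO tumours in 4 members. Psmb2 was at -1.119 there and at -0.284 to -0.16 in the others. Psmb6 was at -0.379 against -0.141 to -0.093, Psmc3ip at -1.068 against -3.032 to -2.966, and Psmc5 at -0.023 against 0.112 to 0.124. Psmc5 was also low in IkB-SR tumour 6, at -0.02, while the other 4 measured IkB-SR tumours lay at 0.112 to 0.151. These were 5 of 72 groups examined for a single distant sample, and chance gives about 1 in 20. Both tumours are in the set of large dye spread, whose part in these values was not tested.

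Psma8, which encodes a core subunit known from testis, carried a value on 2 arrays only, both of IkB-SR tumour 10, with a mean ratio of 2.816. It entered no comparison.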

How the results depend on the processing

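No member was called in 2241 member tests under 24 alternatives, where the lowest adjusted p was 0.0597 (Psmd9, IkB-SR tumours against the liver, in the fit of all 22 arrays with a dye term and the sample as a block), against 0.298 in the fit reported. Members at an unadjusted p under 0.05 numbered 0 to 4 for IkB-SR against Mdr2-KO tumours, 0 to 6 for Mdr2-KO tumours against the liver and 1 to 5 for IkB-SR tumours against it. Of 72 differences of 24 named members, 48 took the other sign under at least 1 alternative. Psmd12 kept a positive and Psme1 a negative difference between the tumour groups under each of the 24 alternatives (0.227 to 0.557 and -0.72 to -0.277). An unchanged sign was not particular to them. In the same comparison Psma3, Psmc4 and Psmd5 stayed positive and Psma1, Psmc6 and Psmd9 stayed negative under all 24.

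The difference in core minus regulatory particle was -0.195 to -0.087 between IkB-SR and Mdr2-KO tumours when 1 sample was left out, -0.287 to -0.221 for IkB-SR tumours against the liver and -0.167 to -0.057 for Mdr2-KO tumours against it. With Eif2s3y as a covariate it was 0.016 between the tumour groups and -0.409 for Mdr2-KO tumours against the liver. Eif2s3y varied little over the Mdr2-KO tumours (-4.01 to -3.67), and the liver was 1 sample. The slope of the covariate thus rests almost only on the IkB-SR samples and is carried over to the other groups. What underlies that slope was not tested.

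Counts over all features moved with single samples and with the model. For IkB-SR against Mdr2-KO tumours, 0 calls became 12 without IkB-SR tumour 4, 13 without the sample labelled IkB-SR replicate 8 and 36 without Mdr2-KO tumour 2. With all samples kept, they became 9 after centring, 11 after quantile normalization and 513 in the fit of 22 arrays. That fit counts the dye-swapped arrays of 11 RNA samples nearly as separate replicates, since the estimated correlation within a sample was 0.0988, so its p-values, Psmd9's included, are too small. For IkB-SR tumours against the liver the calls ranged from 13 to 354, with 18 without IkB-SR tumour 10. For Mdr2-KO tumours against the liver they ranged from 5 to 551, with 20 without IkB-SR tumour 10, and 17, 25 and 16 without Mdr2-KO tumours 1, 2 and 5. The plain average of spots was an alternative chosen after seeing the data. The set of small dye spread holds no liver and gave no value against it. No paired analysis was possible because the tumour groups share no replicate numbers.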
